A study of Mus musculus with 36 samples.

Results

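The 6 genes described here encode receptors through which T cells receive costimulatory signals: Tnfrsf4 (OX40), Tnfrsf9 (4-1BB), Tnfrsf18 (GITR), Cd27 and Tnfrsf1b (TNF receptor 2), all of the tumor necrosis factor (TNF) receptor superfamily, and Icos, a relative of Cd28. They are taken by symbol, with no threshold on a measured value but with earlier results of these data known, and make up 6 of the 18194 genes tested. Their probe sets number 11 of the 45101 on the array, and each gene is read from its brightest probe set by the mean over 36 arrays.

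The arrays measured RNA of mouse CD8 T cells derived from OT-I mice, whose T cell receptor recognises an ovalbumin peptide. The cells carried a short hairpin RNA (shRNA) and had been transferred into mice bearing tumors of B16, a melanoma line. The hairpins were directed against LacZ, a bacterial gene used as the control, or against Ppp2r2d, Egr2, Ptpn2, Arhgap5 or Alk, and each of the 6 transductions has 3 arrays labelled spleen and 3 labelled tumor, 12 groups in all. All groups, LacZ included, thus share the transgenic receptor, the transduction, the transfer and the tumor-bearing host, and a transferred population can hold host cells. The labels used give no age, host strain or time of harvest.

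TNF receptor family members have no enzyme activity of their own. Bound by their ligands, they recruit TRAF adaptor proteins and activate the NF-kappaB transcription factors, which favours survival and division of T cells. Tnfrsf4, Tnfrsf9 and Tnfrsf18 are low on resting CD8 T cells and are induced after antigen recognition, and regulatory T cells carry them too, whereas Cd27 is already present on naive T cells. Icos signals through phosphoinositide 3-kinase, and its mRNA is a target of the RNA-binding repressors Roquin (Rc3h1, Rc3h2) and Regnase-1 (Zc3h12a).

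Several facts of the whole set bear on every result. Melanocyte and myeloid genes were higher in the arrays labelled spleen than in those labelled tumor: the array medians over 8 melanocyte genes ran from 3.16 to 5.27 under the spleen label and from -1.51 to -0.37 under the tumor label, on the deposited log2 scale. The tissue names are therefore given as labels only. Of the targeted genes, each read in the groups of its own hairpin, only Ppp2r2d was called lower than in LacZ, and only labelled spleen (difference -1.37, limma adjusted p = 0.0286). Ptpn2 array 1 labelled tumor stood apart: its highest correlation with any other array was 0.89, against 0.95 to 0.99 for the other 35 arrays, and its Gapdh probe sets differed by 2.94 from the 3' to the 5' end, against 0.25 to 1.39. Its median over 9 T cell identity genes was 4.25, against 5.74 to 7.24 in the other 35 arrays. The Gapdh difference also varied with label and group. It was 0.25 to 0.83 in the 15 hairpin arrays labelled spleen and 0.83 to 1.39 in the LacZ arrays of that label. In the arrays labelled tumor other than Ptpn2 array 1 it was 0.86 to 1.14. The part of RNA quality in the label differences was not tested. The 3 LacZ arrays labelled spleen were less like any other array than the other 15 of that label. Their highest correlations were 0.95 to 0.97, against 0.98 to 0.99. The labels do not say if replicate arrays stem from different mice, so every p measures the spread between these arrays, which may be technical. Of the markers of the labelled cell type, Cd8a read 6.13 to 7.46 in arrays labelled spleen and 6.25 to 7.21 in those labelled tumor. Cd3e read 6.47 to 7.73 and 3.75 to 7.35, Cd3d 6.63 to 7.65 and 3.74 to 7.98, and Cd2 5.74 to 6.86 and 3.18 to 7.52. These ranges include Ptpn2 array 1 labelled tumor. Without it the mean of labelled tumor minus labelled spleen went from -0.28 to -0.11 for Cd3e and from -0.02 to 0.19 for Cd3d. For Cd2 it went from 0.33 to 0.54, and for Cd8a from -0.03 to -0.04.

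The upstream sequences of 4 members are shown because the 4 genes span the label differences described below, from the largest (Tnfrsf4, Tnfrsf9) to none called (Cd27). They are the 250 bases before the annotated start in RefSeq (GRCm38.p6), read 5′ to 3′ on the gene's strand. Capitals mark matches, on either strand, to an NF-kappaB consensus, to the AP-1 motif TGANTCA or to the NFAT core GGAAAA. In Tnfrsf9 the capitals that precede the AP-1 match hold 2 overlapping NF-kappaB matches.
Tnfrsf4, chr4:156013445-156013694, plus strand: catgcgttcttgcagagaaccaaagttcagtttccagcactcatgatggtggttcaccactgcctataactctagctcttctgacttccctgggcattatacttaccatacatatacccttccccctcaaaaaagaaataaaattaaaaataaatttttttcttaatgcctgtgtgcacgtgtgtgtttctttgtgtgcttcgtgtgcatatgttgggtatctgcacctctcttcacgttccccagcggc
Tnfrsf9, second annotated start, chr4:150927749-150927998, plus strand: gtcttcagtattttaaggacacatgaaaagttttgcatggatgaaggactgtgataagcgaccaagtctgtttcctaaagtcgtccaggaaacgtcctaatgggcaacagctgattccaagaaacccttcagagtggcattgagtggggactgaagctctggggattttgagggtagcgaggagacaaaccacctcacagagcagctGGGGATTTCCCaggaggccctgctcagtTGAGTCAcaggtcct
Tnfrsf18, chr4:156026072-156026321, plus strand: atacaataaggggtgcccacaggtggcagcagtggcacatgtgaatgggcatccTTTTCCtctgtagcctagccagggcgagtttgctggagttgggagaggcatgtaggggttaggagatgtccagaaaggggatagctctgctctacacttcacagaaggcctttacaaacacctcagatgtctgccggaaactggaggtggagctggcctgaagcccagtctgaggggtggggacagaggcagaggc
Cd27, chr6:125237028-125237277, minus strand: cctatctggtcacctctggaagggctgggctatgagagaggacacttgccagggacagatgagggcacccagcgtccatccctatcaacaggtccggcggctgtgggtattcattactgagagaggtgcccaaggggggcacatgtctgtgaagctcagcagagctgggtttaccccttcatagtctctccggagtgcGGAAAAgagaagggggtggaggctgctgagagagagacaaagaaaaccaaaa
RefSeq entries matched 5 of the 6 members, with 6 starts in all. The Tnfrsf9 start shown held the NF-kappaB matches and 1 AP-1 match, while Tnfrsf18, Cd27 and the other Tnfrsf9 start each held 1 NFAT match. Tnfrsf4 and Tnfrsf1b held none of the motifs in this window. Of 32851 promoters of the same length, 7.25% held the NF-kappaB motif, 6.75% the AP-1 motif and 20.4% the NFAT core. In the RefSeq gene order Tnfrsf4 and Tnfrsf18 are direct neighbours on chromosome 4, which also carries Tnfrsf9 and Tnfrsf1b. Icos lies beside Ctla4 on chromosome 1, with Cd28 next to that, and Cd27 lies on chromosome 6.

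The first comparison asked how the receptor genes differ between the 2 tissue labels. Over the mean of the 6 transductions 5 of the 6 members fell in the arrays labelled tumor and none rose (limma). Tnfrsf4 and Tnfrsf9 fell by far more than Tnfrsf18, Tnfrsf1b and Icos, and Cd27 did not pass the test. Of all genes tested, 33.1% were called lower, 37.6% higher and 70.7% in either direction in this comparison, so a call alone sets a member little apart. The arrays of the 2 labels, 18 each, did not overlap for 4 members, against 6.51% of all genes that were lower without overlap. The median difference over the members was -1.55, and over all genes 0.13. In bulk RNA, fewer cells that express a gene and less RNA per cell cannot be told apart.

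**Figure D1:**
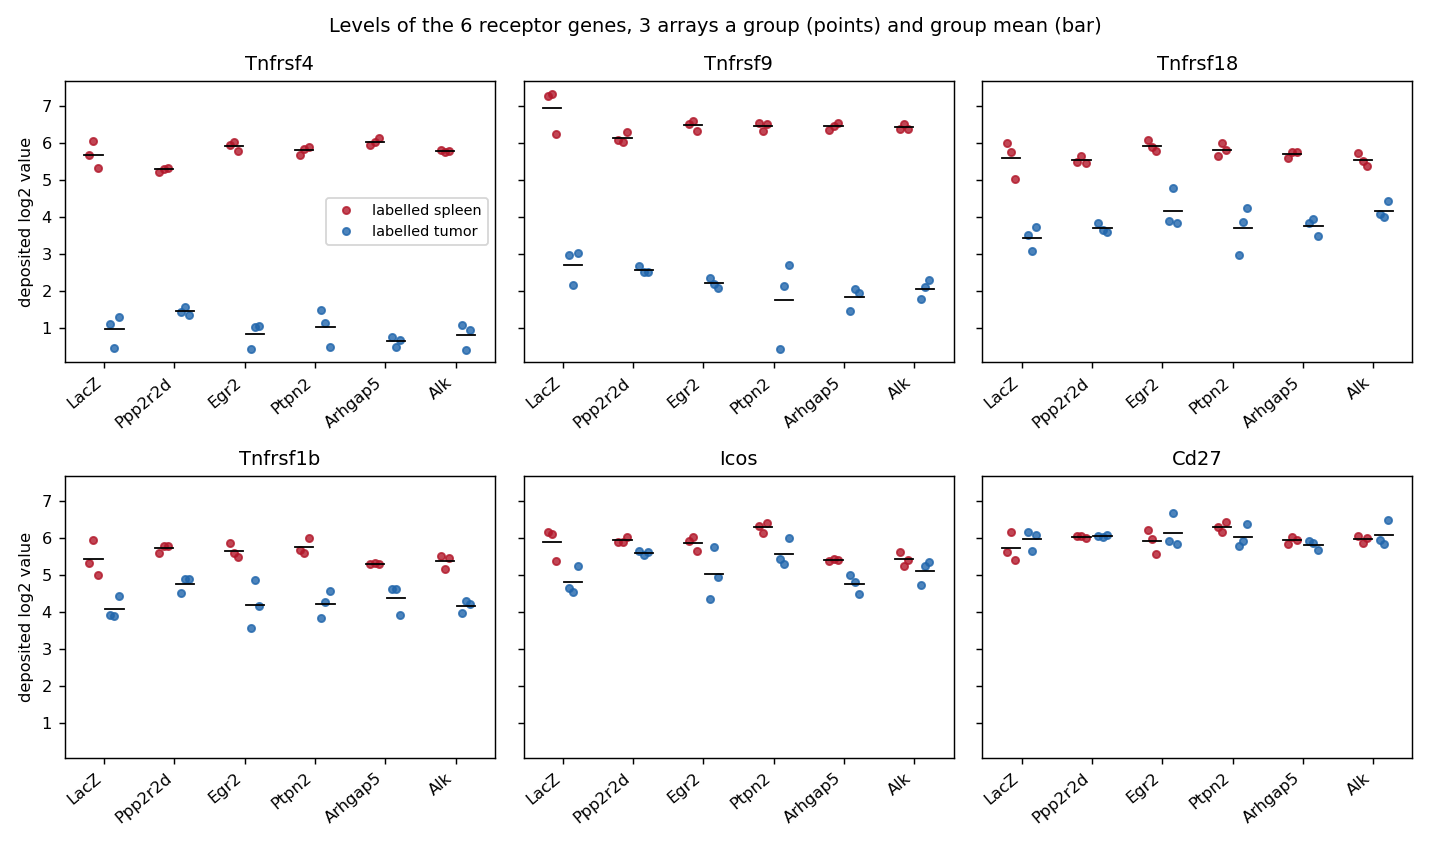
Deposited log2 values of the 6 genes (vertical axis) in each transduction (horizontal axis), with 1 point per array, red for labelled spleen and blue for labelled tumor, and a black bar at each group mean of 3 arrays. All Tnfrsf4 arrays labelled spleen read 5.23 or more and all labelled tumor 1.57 or less, whereas the Cd27 points of both labels overlap.

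Tnfrsf4 encodes OX40, the receptor of OX40 ligand. With LacZ it read 5.68, 6.05 and 5.31 in the 3 arrays labelled spleen and 1.10, 0.45 and 1.30 in those labelled tumor (means 5.68 ± 0.37 and 0.95 ± 0.44, SD, n = 3). Every array of 1 label lay far from every array of the other. Over all transductions the 18 arrays labelled spleen ran from 5.23 through a median of 5.80 to 6.14, and the 18 labelled tumor from 0.40 through 1.02 to 1.57. The mean label difference was -4.81 ± 0.10 (SE), a 28.0-fold change (limma, adjusted p = 9.27e-27). It was lowest in size with Ppp2r2d (-3.84 ± 0.26) and highest with Arhgap5 (-5.40). From high to low, the group means (± SD, n = 3) labelled spleen were 6.03 ± 0.10 with Arhgap5, 5.92 ± 0.13 with Egr2, 5.81 ± 0.11 with Ptpn2, 5.78 ± 0.029 with Alk, 5.68 ± 0.37 with LacZ and 5.28 ± 0.052 with Ppp2r2d. Those labelled tumor were 1.45 ± 0.11 with Ppp2r2d, 1.02 ± 0.51 with Ptpn2, 0.95 ± 0.44 with LacZ, 0.83 ± 0.34 with Egr2, 0.80 ± 0.35 with Alk and 0.63 ± 0.14 with Arhgap5. Ordered by group mean, the 6 groups labelled spleen preceded the 6 labelled tumor, and the step between them, 3.84, was the only one of 11 at which neighbouring groups did not overlap. Such steps, here and for the other members, compare only groups adjacent in mean. The share of all genes with such steps is not given here.

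Tnfrsf9 encodes 4-1BB. Its values with LacZ were 7.28, 7.33 and 6.25 in arrays labelled spleen and 2.96, 2.15 and 3.01 in arrays labelled tumor. Across transductions the arrays labelled spleen ran from 6.03 through a median of 6.43 to 7.33, and those labelled tumor from 0.43 through 2.17 to 3.01. No array of 1 label reached the range of the other. The mean difference was -4.30 ± 0.14 (SE), 19.8-fold (limma, adjusted p = 5.10e-22), and the transductions ranged from -3.57 with Ppp2r2d to -4.71 with Ptpn2. The lowest value, 0.43, came from Ptpn2 array 1 labelled tumor, the array that stood apart, beside 2.13 and 2.71 in the other 2 arrays of its group. Without it the Ptpn2 difference was -4.05 and the mean difference -4.19. Its group means (± SD, n = 3) under the spleen label were, in order, 6.95 ± 0.61 with LacZ, 6.48 ± 0.14 with Egr2, 6.46 ± 0.12 with Ptpn2, 6.45 ± 0.091 with Arhgap5, 6.43 ± 0.082 with Alk and 6.13 ± 0.14 with Ppp2r2d. Under the tumor label they were 2.71 ± 0.48 with LacZ, 2.56 ± 0.10 with Ppp2r2d, 2.20 ± 0.13 with Egr2, 2.05 ± 0.27 with Alk, 1.82 ± 0.31 with Arhgap5 and 1.75 ± 1.18 with Ptpn2. LacZ labelled spleen was highest by 0.47. Its array 3 (6.25), however, lay below every Egr2, Ptpn2, Arhgap5 and Alk array of that label and within the Ppp2r2d range (6.03 to 6.30). Neighbours did not overlap at 3 of 11 steps: above and below Ppp2r2d labelled spleen (0.30 and 3.42) and below Ppp2r2d labelled tumor (0.36). Groups further apart in the order could still overlap across such a step. Ptpn2 array 3 labelled tumor (2.71) lay above all Ppp2r2d arrays of that label. A second probe set, 1428034_a_at, differed by -5.20. The third, 1421481_at, had a mean of -2.61, at the 9.37th percentile of the 18194 gene values, and gave 0.28 (limma, adjusted p over all probe sets = 0.133). Its levels, -3.26 to -0.88 labelled spleen and -3.21 to -1.01 labelled tumor, are too low to set its differences against those of the bright sets.

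Tnfrsf18 encodes GITR, and with LacZ it read 5.99, 5.76 and 5.01 under the spleen label and 3.50, 3.08 and 3.72 under the tumor label. Over 18 arrays each, the labelled spleen values ran from 5.01 through 5.74 to 6.09 and the labelled tumor values from 2.98 through 3.84 to 4.78. The labels did not overlap, but the distance between them was smaller than for its neighbour gene Tnfrsf4. Its mean difference was -1.87 ± 0.12 (SE), 3.65-fold (limma, adjusted p = 4.59e-15), with transductions between -1.38 (Alk) and -2.15 (LacZ). The lowest labelled tumor value again came from Ptpn2 array 1. In descending order, means (± SD, n = 3) of groups labelled spleen were 5.92 ± 0.15 with Egr2, 5.82 ± 0.18 with Ptpn2, 5.69 ± 0.093 with Arhgap5, 5.59 ± 0.51 with LacZ, 5.55 ± 0.17 with Alk and 5.53 ± 0.10 with Ppp2r2d. Means of groups labelled tumor were 4.17 ± 0.53 with Egr2, 4.16 ± 0.23 with Alk, 3.75 ± 0.24 with Arhgap5, 3.70 ± 0.65 with Ptpn2, 3.69 ± 0.12 with Ppp2r2d and 3.43 ± 0.33 with LacZ. Neighbours did not overlap at 2 of 11 steps, between the labels (1.36) and below Alk labelled tumor (0.41). Ptpn2 array 3 labelled tumor (4.25), of a group lower in the order, still lay within the Alk range of that label (3.99 to 4.43).

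Tnfrsf1b encodes TNF receptor 2, a receptor of TNF and lymphotoxin alpha. With LacZ its arrays labelled spleen read 5.33, 5.95 and 5.01 and those labelled tumor 3.92, 3.89 and 4.43. The full ranges were 5.01 to 6.01 (median 5.56) and 3.57 to 4.89 (median 4.28), again without overlap. The mean difference was -1.24 ± 0.12 (SE), 2.37-fold (limma, adjusted p = 5.65e-11). It was called in all 6 transductions (-0.91 to -1.54), but the call with Ppp2r2d was lost without Ppp2r2d array 1 labelled tumor (-0.84, adjusted p = 0.065) and that with Arhgap5 without Arhgap5 array 3 labelled tumor (-0.68, adjusted p = 0.110). Ordered group means (± SD, n = 3) labelled spleen were 5.76 ± 0.22 with Ptpn2, 5.73 ± 0.11 with Ppp2r2d, 5.66 ± 0.20 with Egr2, 5.43 ± 0.48 with LacZ, 5.38 ± 0.20 with Alk and 5.30 ± 0.011 with Arhgap5. Labelled tumor, they were 4.77 ± 0.21 with Ppp2r2d, 4.39 ± 0.41 with Arhgap5, 4.22 ± 0.36 with Ptpn2, 4.20 ± 0.65 with Egr2, 4.16 ± 0.18 with Alk and 4.08 ± 0.30 with LacZ. Neighbouring groups failed to overlap at 1 of 11 steps, the one between the labels. The dimmer probe set 1448951_at gave -0.65 over the mean and was called in only 2 of the 6 transductions, Ptpn2 and Alk (limma, adjusted over all probe sets).

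Icos showed the smallest of the falls. With LacZ it read 6.18, 6.13 and 5.38 in arrays labelled spleen and 4.64, 4.55 and 5.25 in arrays labelled tumor, which did not overlap, as held for 20.4% of all genes in that direction. Over all transductions the values ran from 5.24 through 5.90 to 6.40 and from 4.36 through 5.25 to 6.01, and here the labels overlapped. The mean difference was -0.66 ± 0.12 (SE), 1.58-fold (limma, adjusted p = 1.24e-05). Taken singly, the difference was called with LacZ (-1.08, adjusted p = 0.00463), Egr2 (-0.84, adjusted p = 0.0275) and Ptpn2 (-0.71, adjusted p = 0.0403) by limma. It was -0.35 with Ppp2r2d, -0.64 with Arhgap5 and -0.32 with Alk, which did not pass. The Egr2 call was lost without any 1 of spleen arrays 1 or 2 or tumor arrays 1 or 3 (adjusted p up to 0.197), and the Ptpn2 call without any 1 of spleen arrays 1 or 3 or tumor arrays 1 or 2 (up to 0.120). The ordered means (± SD, n = 3) labelled spleen were 6.29 ± 0.14 with Ptpn2, 5.95 ± 0.08 with Ppp2r2d, 5.89 ± 0.45 with LacZ, 5.87 ± 0.19 with Egr2, 5.43 ± 0.20 with Alk and 5.41 ± 0.035 with Arhgap5. For the tumor label the order was 5.60 ± 0.058 with Ppp2r2d, 5.58 ± 0.38 with Ptpn2, 5.11 ± 0.34 with Alk, 5.03 ± 0.71 with Egr2, 4.81 ± 0.38 with LacZ and 4.76 ± 0.26 with Arhgap5. Ppp2r2d and Ptpn2 labelled tumor averaged more than Alk and Arhgap5 labelled spleen, so the labels mix in this order. Neighbours did not overlap at 3 of 11 steps: below Ptpn2 (0.35), Egr2 (0.27) and Arhgap5 (0.30), each labelled spleen. Groups further apart overlapped across each of these steps. LacZ array 1 labelled spleen (6.18) lay within the Ptpn2 range and Ptpn2 array 3 labelled tumor (6.01) within the Egr2 range. Egr2 array 2 labelled tumor (5.77) lay above the Arhgap5 arrays labelled spleen. The other probe sets of Icos gave larger mean falls, -0.88 for 1421930_at and -1.26 for 1421931_at, and both were called in every transduction (limma, adjusted over all probe sets).

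Cd27 encodes the receptor of CD70. With LacZ it read 5.62, 6.17 and 5.40 in arrays labelled spleen and 6.17, 5.65 and 6.08 in arrays labelled tumor. The ranges over 18 arrays each, 5.40 to 6.45 and 5.65 to 6.67, overlapped almost fully, with medians of 6.03 and 5.94. The mean difference was 0.03 with a 95% interval from -0.18 to 0.23 (limma, adjusted p = 0.807), and no transduction passed the test (-0.28 to 0.23). Group means (± SD, n = 3) labelled spleen ran 6.31 ± 0.14 with Ptpn2, 6.04 ± 0.032 with Ppp2r2d, 5.98 ± 0.10 with Alk, 5.95 ± 0.10 with Arhgap5, 5.92 ± 0.32 with Egr2 and 5.73 ± 0.40 with LacZ. Labelled tumor they ran 6.15 ± 0.46 with Egr2, 6.09 ± 0.34 with Alk, 6.06 ± 0.023 with Ppp2r2d, 6.03 ± 0.30 with Ptpn2, 5.97 ± 0.28 with LacZ and 5.82 ± 0.13 with Arhgap5. No step between neighbouring groups was free of overlap. This reading depends on scaling: after quantile normalization the mean difference was 0.23 (limma, adjusted p = 8.29e-05), and after cyclic loess also 0.23, both called higher. With LacZ alone these scalings gave 0.71 and 0.76. The median of all genes with LacZ was -0.48 in the deposited values and 0.05 and -0.00 after the scalings, and over the mean of transductions it was 0.13, 0.08 and 0.01. The part of these shifts in the Cd27 calls was not tested. The 5 members called lower over the mean remained lower under both scalings.

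**Figure D2:**
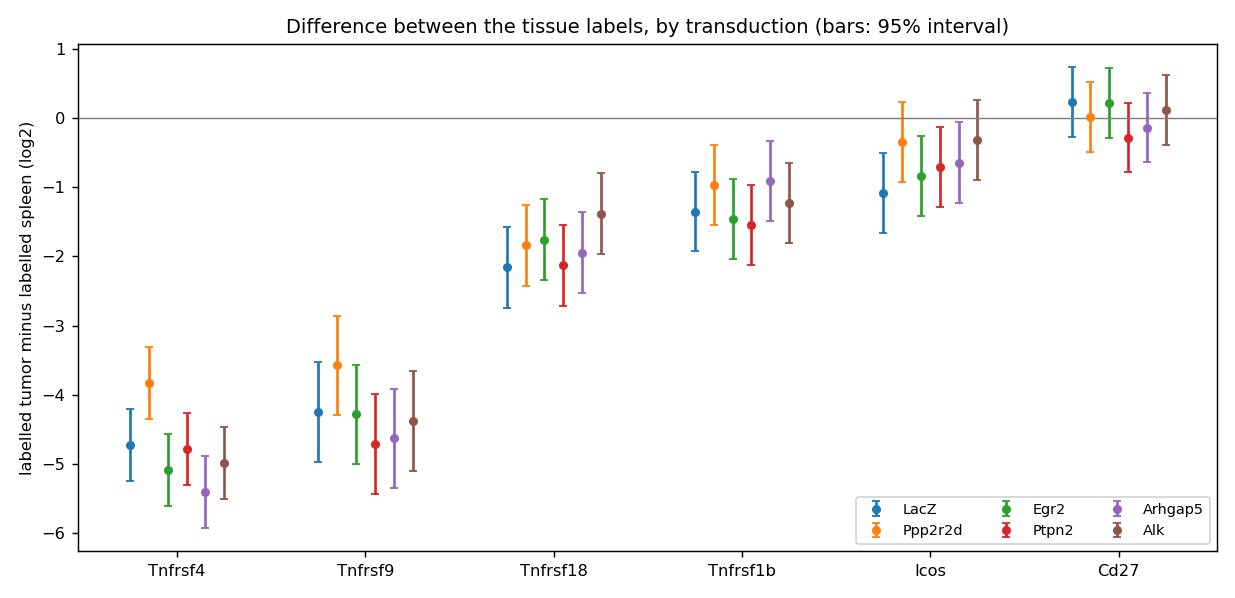
Label difference of each gene (labelled tumor minus labelled spleen, log2, vertical axis) in each of the 6 transductions (colours), with unadjusted 95% intervals from limma. Tnfrsf4 and Tnfrsf9 lie between -5.40 and -3.57, and Cd27 lies between -0.28 and 0.23 with every interval across 0.

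Counted by transduction, 27 of 36 tests were called, all lower, with Cd27 in 0 of 6. LacZ had 5 members called lower, where 18.9% of all genes were. Ppp2r2d had 4 against 14.5%, Egr2 5 against 15.9%, Ptpn2 5 against 25.1%, Arhgap5 4 against 21.6% and Alk 4 against 20%. Tnfrsf4, Tnfrsf9, Tnfrsf18 and Tnfrsf1b were each called lower in all 6 transductions. The 6 comparisons use separate arrays but share each gene's estimate of the spread from the same fit, so their calls are not independent.

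**Figure D3:**
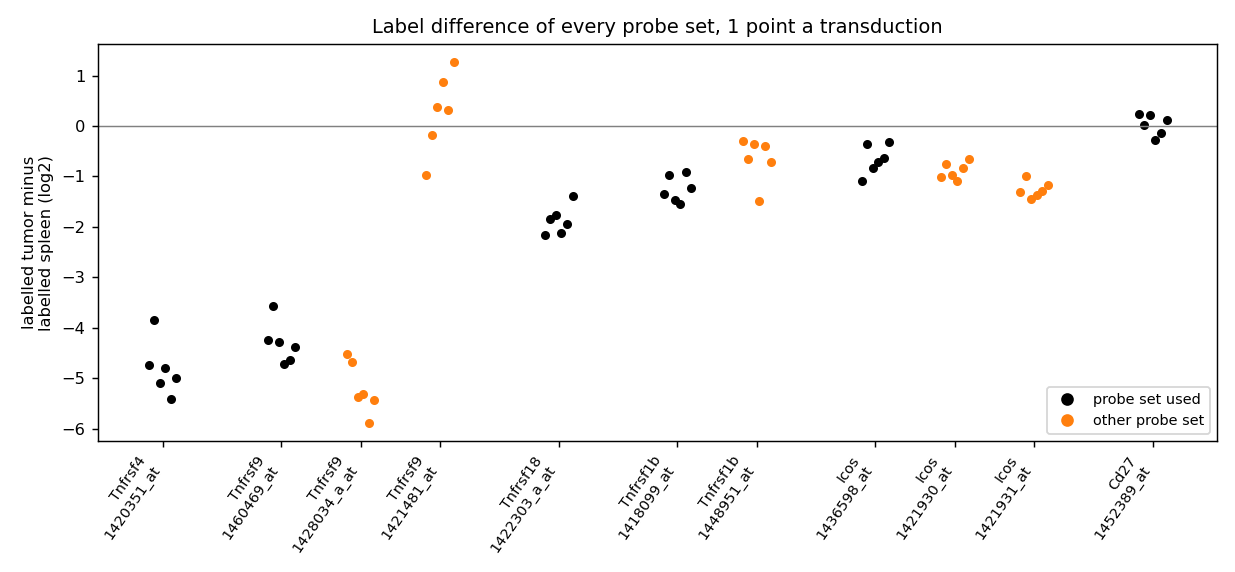
Label difference (log2, vertical axis) of all 11 probe sets of the 6 genes (horizontal axis), 1 point per transduction, black for the probe set used and orange for the others. The dim Tnfrsf9 set 1421481_at lies apart, between -0.98 and 1.27, while the other Tnfrsf9 sets lie between -5.89 and -3.57.

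Marker genes of other cell types moved with the labels, in a comparison where 37.6% of all genes were called higher and 33.1% lower. Of 9 measured myeloid genes 8 were called lower in the arrays labelled tumor, and array medians over the list ran from 1.25 to 4.42 under the spleen label and from -3.17 to -0.99 under the tumor label. Of 8 melanocyte genes 7 were lower, and of 7 genes of dendritic cells and MHC class II 5 were lower and 1 higher. Of 4 NK cell genes 2 were lower and 1, Klra8, higher, whereas 5 of 5 B cell genes were higher, or 4 after either scaling. Several of these levels were low. Klra8 read -3.02 to -0.82 labelled spleen and -1.99 to 0.69 labelled tumor, and Ms4a1 -3.52 to -0.86 and -3.29 to -0.61. Pax5, whose call was lost after the scalings, read -3.04 to -0.72 and -3.09 to -0.55. Ighm read 3.75 to 4.67 and 4.15 to 6.16. With LacZ alone Cd79a, Ms4a1 and Pax5 did not pass. Macrophages and other myeloid cells can express Tnfrsf1b, and the part of these cells in the label differences was not tested.

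CD4 and regulatory T cells, which can carry Tnfrsf4, Tnfrsf9, Tnfrsf18 and Icos, were followed by 8 genes, of which 7 were lower in arrays labelled tumor. Their array medians ran from 0.24 to 1.23 and from -0.75 to 0.30. The list's falls were of Il2ra (-3.77), the high-affinity interleukin 2 receptor chain that activated CD8 T cells also carry, Ikzf2 (-2.55), Ikzf4 (-1.38), Cd4 (-0.79), Zbtb7b (-0.70), Ctla4 (-0.67) and Foxp3 (-0.37), and the rise was of Cd40lg (0.47). After quantile normalization and after cyclic loess 6 were lower and 0 higher, and the calls of Foxp3 (-0.01 and -0.22) and Cd40lg were lost. Foxp3 was called in 0 of the single transductions. Cd4 read -1.98 to 0.45 labelled spleen and -2.78 to -0.09 labelled tumor, and Foxp3 -0.59 to 1.40 and -0.97 to 0.39. Ikzf2 read 3.71 to 5.92 and 1.40 to 3.05, and Ctla4 6.34 to 7.62 and 4.92 to 6.82. The part of these cells in the label differences was not tested. Of 9 T cell identity genes 2 were higher and 1 lower, with a median difference of -0.02. The counts were 4 and 1 after quantile normalization, 4 and 0 after cyclic loess and 3 and 0 without Ptpn2 array 1 labelled tumor.

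The second comparison asked whether a hairpin changed the receptor genes relative to LacZ. Under the spleen label 0 of 30 tests, 6 genes by 5 hairpins, were called by limma, with 2 at an unadjusted p under 0.05. Of all genes, 12.8% were called with Ppp2r2d, 3.23% with Egr2, 9.58% with Ptpn2, 8.89% with Arhgap5 and 7.4% with Alk. Under the tumor label 0 of 30 were called, with 7 at an unadjusted p under 0.05, beside 0.995%, 0.0275%, 0.764%, 0.368% and 0.0055% of all genes. All comparisons under 1 label share the 3 LacZ arrays, and those labelled spleen are the less correlated arrays named above. The calls depended on how arrays were weighted and scaled: quantile normalization gave 5 under the spleen label and 1 under the tumor label, and array weights gave 6 and 10. These weights came from an estimate that stopped before its tolerance, and another estimator, chosen after that was seen, gave 1 and 7.

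**Figure D4:**
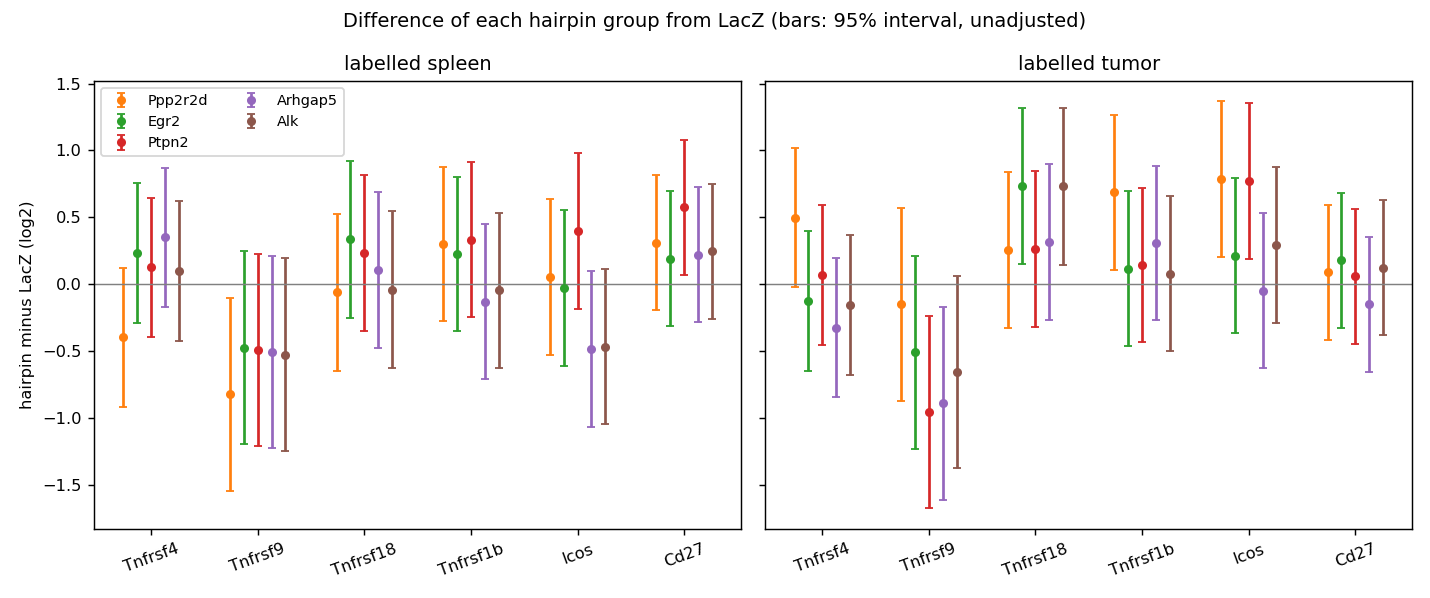
Difference of each hairpin group from LacZ (log2, vertical axis) for the 6 genes, left for arrays labelled spleen and right for arrays labelled tumor, with unadjusted 95% intervals from limma. All differences lie between -0.95 and 0.79, and none passed the test after adjustment over all genes.

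With the Ppp2r2d hairpin, 3 members labelled tumor lay above LacZ without overlap. Icos read 5.65, 5.53 and 5.62 with Ppp2r2d and 4.64, 4.55 and 5.25 with LacZ, a difference of 0.79 with a 95% interval from 0.21 to 1.37 (limma, adjusted p = 0.194). Such a lack of overlap held for 18.7% of all genes in that direction. Tnfrsf1b read 4.52, 4.88 and 4.89 with Ppp2r2d against 3.92, 3.89 and 4.43, a difference of 0.69 (limma, adjusted p = 0.265), and Tnfrsf4 differed by 0.50 (adjusted p = 0.392). Both array weightings called Icos (0.40 and 0.45) and Tnfrsf1b (0.44 and 0.48).

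With the Ptpn2 hairpin, Icos labelled tumor read 5.43, 5.31 and 6.01, higher than each LacZ array, and differed by 0.77 (limma, adjusted p = 0.165). Such a lack of overlap held for 6.39% of all genes. It was called after quantile normalization (0.67, adjusted p = 0.0103), after cyclic loess (0.72) and without Ptpn2 array 2 labelled tumor (0.91, adjusted p = 0.0425), but not without array 1, which stood apart (0.85, adjusted p = 0.494). Under the spleen label Icos with Ptpn2 read 6.34, 6.13 and 6.40, the highest mean of its 12 groups (6.29). Its arrays did not overlap those of Ppp2r2d, the next group by mean, but did overlap those of LacZ, whose array 1 read 6.18. There the probe set 1421930_at was called higher than in LacZ (0.92, limma adjusted p over all probe sets = 0.0255), while the probe set used gave 0.40. Tnfrsf9 labelled tumor was lower with Ptpn2 than with LacZ by its mean (-0.95, limma adjusted p = 0.165), with overlap. It was called without Ptpn2 array 2 (-1.14, adjusted p = 0.0382) or without array 3 (-1.43, adjusted p = 0.0331). Without array 1, the array that stood apart, it was -0.29 (adjusted p = 0.650).

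Cd27 labelled spleen differed by 0.58 between Ptpn2 and LacZ (limma, adjusted p = 0.129), with arrays at 6.31, 6.17 and 6.45 against 5.62, 6.17 and 5.40. It was called after quantile normalization (0.69, adjusted p = 0.000258), after cyclic loess (0.72), with both array weightings (0.69 and 0.70) and without the 3 arrays of raised minimum (0.80, adjusted p = 0.0201). Tnfrsf9 labelled spleen differed by -0.82 between Ppp2r2d and LacZ (limma, adjusted p = 0.115) and was called after cyclic loess (-0.90), with the default array weights (-0.97) and when array 3 of the LacZ group was left out (-1.17, adjusted p = 0.0362). The second Tnfrsf9 probe set did not show that difference (0.05). Tnfrsf18 labelled tumor differed from LacZ by 0.74 with Egr2 (limma, adjusted p = 0.771) and by 0.73 with Alk (adjusted p = 0.125, the lowest of the 30 tests). The Alk difference was called with both array weightings (0.31 and 0.38) and without the arrays of raised minimum (adjusted p = 0.0272). Tnfrsf9 with Arhgap5 differed by -0.89 (limma, adjusted p = 0.808) and was called with both array weightings (-1.15 and -1.14) and from probe set 1428034_a_at (-1.29, adjusted p = 0.0464).

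Against the other 4 hairpins, which leaves LacZ out, 1 of 30 tests was called under the tumor label and 0 of 30 under the spleen label, where 3 had an unadjusted p under 0.05. The call was Tnfrsf4 with Ppp2r2d, where 7.66% of all genes were called higher and 30.4% in either direction. For the other hairpins, in the order Egr2, Ptpn2, Arhgap5 and Alk, 0.055%, 4.56%, 0.753% and 0.412% of all genes were called under the tumor label. Under the spleen label 4.19% were called for Ppp2r2d and 0.28%, 1.05%, 1.18% and 1.34% for the others. Its arrays read 1.42, 1.57 and 1.35, and the mean of 1.45 compared with 0.82 over the other hairpins (difference 0.63 ± 0.20 SE, limma, adjusted p = 0.0241). Both are low values, and the highest array of the others, 1.48 with Ptpn2, lay within the Ppp2r2d range. It was Ptpn2 array 1, the array that stood apart, and the next highest, Ptpn2 array 2, read 1.11. The call was lost after quantile normalization (0.24, adjusted p = 0.423), after cyclic loess (0.28, adjusted p = 0.360) and without any 1 Ppp2r2d array labelled tumor (adjusted p between 0.0818 and 0.0976).

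Under the spleen label Tnfrsf4 went the other way. With Ppp2r2d it read 5.23, 5.30 and 5.32, and the 12 arrays of the other hairpins lay higher without overlap, which held for 2.35% of all genes in that direction. The difference was -0.60 ± 0.20 SE and did not pass (limma, adjusted p = 0.103), but it did after quantile normalization (-0.64, adjusted p = 0.0145), after cyclic loess (-0.64), with both array weightings, with fewer arrays in the fit and without the 3 arrays whose lowest value was raised. Icos with Ptpn2 was higher than in all arrays of the other hairpins labelled spleen (0.63, limma adjusted p = 0.326), which held for 0.94% of all genes. It was called after quantile normalization (0.60), after cyclic loess (0.55), with both array weightings (each 0.65) and with fewer arrays in the fit.

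The third comparison asked whether the label difference itself depended on the hairpin. Against LacZ 0 of 30 tests were called by limma, and 1 had an unadjusted p under 0.05: Tnfrsf4 with Ppp2r2d (0.89, adjusted p = 0.417). Of all genes 0.786% were called with Ppp2r2d, 0% with Egr2, 17.3% with Ptpn2, 2.82% with Arhgap5 and 25.4% with Alk. Each of these tests also uses the LacZ arrays labelled spleen. Against the other 4 hairpins, a comparison added after the values were seen, 1 of 30 was called. The Tnfrsf4 label difference was smaller in size with Ppp2r2d by 1.23 ± 0.29 SE (limma, adjusted p = 0.0141), where 1.16% of all genes were called in that direction and 3.08% in either. For Egr2, Ptpn2, Arhgap5 and Alk 0%, 0.621%, 0.242% and 0.214% were called. The call was lost without Ppp2r2d array 1 labelled spleen (1.20, adjusted p = 0.0595) or Ppp2r2d array 2 labelled tumor (1.17, adjusted p = 0.0503).

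The ligands of these receptors were followed as a group of 7 genes, of which 6 were measured and Tnfsf18, the GITR ligand, was not analysed here. Over the mean of the transductions 4 fell in arrays labelled tumor and 1 rose, with a median of -1.80. Of all genes tested, 33.1% were called lower and 37.6% higher in this comparison, which the list counts below also use. Cd70, the ligand of Cd27, fell by 3.76 on the log2 scale, with arrays labelled spleen at 0.75 to 3.14 and arrays labelled tumor at -2.64 to -0.61. Tnfsf9, the 4-1BB ligand, fell by 3.65 and Tnfsf4, the OX40 ligand, by 2.76, both in each of the 6 transductions. Lta, which encodes lymphotoxin alpha, fell by 0.85. Icosl, the ICOS ligand, rose by 1.24 and was called in 4 transductions, while Tnf differed by 0.16 (limma, adjusted p = 0.277) and was called higher after quantile normalization (0.63) and cyclic loess (0.52). Antigen-presenting cells express several of these ligands, and myeloid and MHC class II genes moved the same way as Cd70, Tnfsf9 and Tnfsf4, whose source was not tested.

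**Figure D5:**
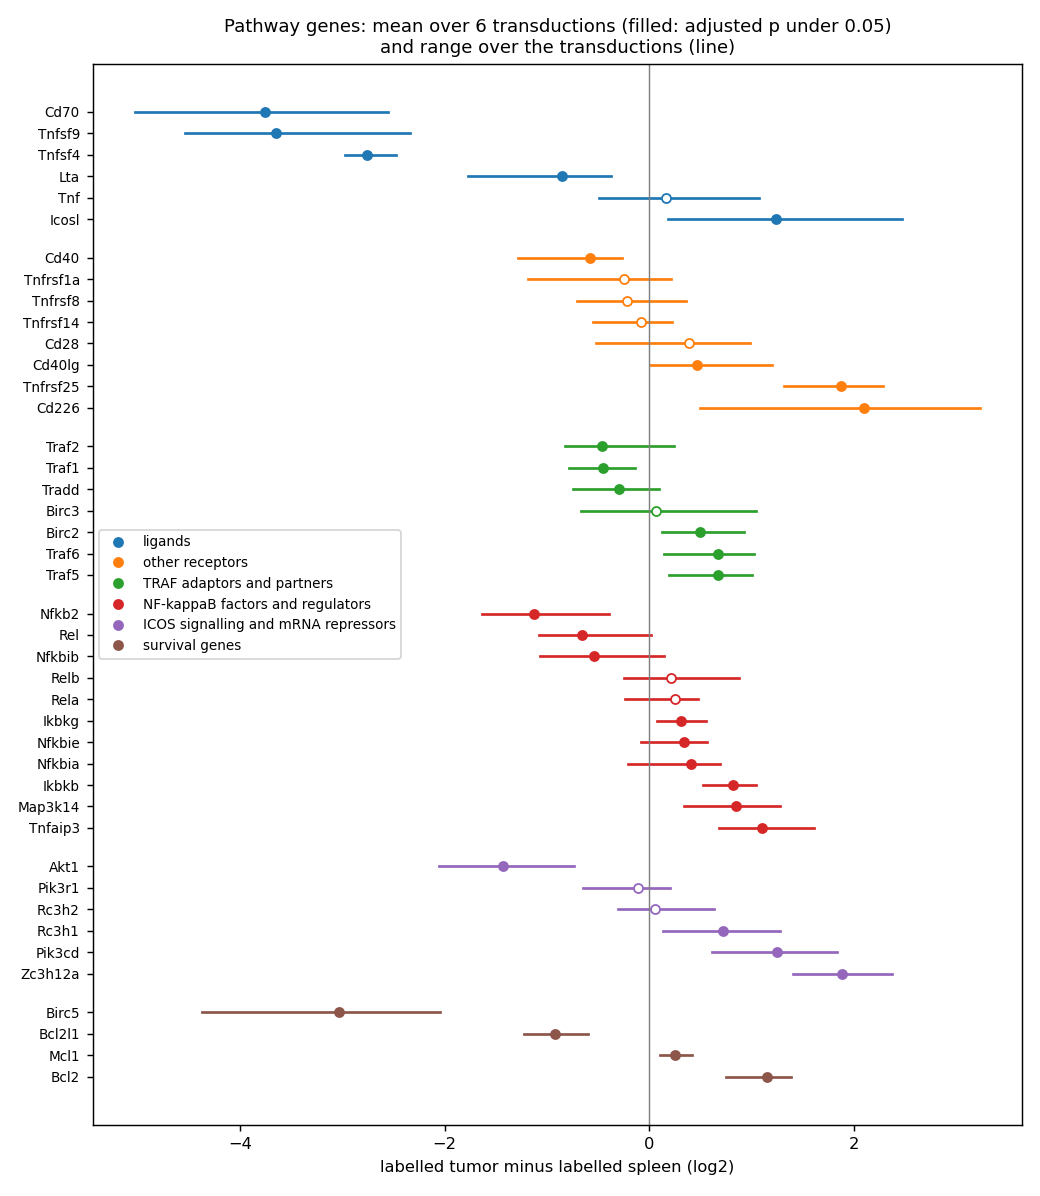
Label difference (labelled tumor minus labelled spleen, log2, horizontal axis) of the measured pathway genes, grouped by role in colours, with the mean over the 6 transductions as a point (filled at a limma adjusted p under 0.05) and the range over transductions as a line. Cd70, Tnfsf9, Tnfsf4 and Birc5 lie below -2.7, and Cd226, Zc3h12a and Tnfrsf25 above 1.8.

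A list of 8 measured genes of other costimulatory pathways held 7 receptors and Cd40lg, the CD40 ligand. Of the 8, 3 rose, Cd40lg among them, and 1 fell. Cd226 (DNAM-1), an activating receptor, rose by 2.10 and Tnfrsf25 (DR3), another TNF receptor family member, by 1.88, the latter in all 6 transductions. Both had low values that overlapped between the labels. Cd226 read -3.30 to 0.04 labelled spleen and -0.44 to 1.32 labelled tumor, and Tnfrsf25 -2.92 to -0.80 and -1.15 to 0.55. Cd40 fell by 0.57, a call lost after quantile normalization and cyclic loess, as was that of Cd40lg (0.47). Cd28 differed by 0.39 (limma, adjusted p = 0.0577), and Tnfrsf8, Tnfrsf14 and Tnfrsf1a did not pass. Cd28 was called higher after quantile normalization (0.58), after cyclic loess (0.58) and without Ptpn2 array 1 labelled tumor (0.55). Tnfrsf8 was called lower after both scalings (-0.43 and -0.52), and Tnfrsf1a higher after quantile normalization only (0.21).

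Of 7 measured TRAF adaptors and partners 3 rose and 3 fell, with a median of 0.07. Traf5 rose by 0.67 and Traf6 by 0.67, while Traf1, an adaptor that binds 4-1BB, fell by 0.46 and Traf2 by 0.46. The falls of Traf2 and Tradd were lost after both scalings, which gave 4 adaptors higher and 0 lower by quantile normalization and 4 and 1 by cyclic loess. Of 11 measured NF-kappaB factors and regulators 6 rose and 3 fell, or 8 and 1 after quantile normalization and 8 and 2 after cyclic loess. With 70.7% of all genes called in the deposited values, such counts set a list little apart. The shares of all genes after the scalings are not given here. Nfkb2, the precursor of the alternative pathway's p52, fell by 1.13 in the mean and was called in 5 transductions. Map3k14 (NIK), the kinase of that pathway, rose by 0.85, and Tnfaip3 (A20), an inhibitor of NF-kappaB activation, rose by 1.10 and was called in 5 transductions.

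Of 6 genes of ICOS signalling and repression of its mRNA 3 rose and 1 fell, or 5 and 1 after either scaling, where Pik3r1 and Rc3h2 were also higher. Zc3h12a, which encodes Regnase-1, rose by 1.89 in the mean, and its arrays did not overlap (2.30 to 3.68 labelled spleen, 4.09 to 5.78 labelled tumor). Rc3h1 (Roquin-1) rose by 0.72 and Pik3cd, a phosphoinositide 3-kinase subunit, by 1.25, while Akt1 fell by 1.43. Of the survival genes measured, 4 in number, Bcl2 rose by 1.15 and Mcl1 by 0.26, whereas Birc5 (survivin), which is also a gene of dividing cells, fell by 3.03 and Bcl2l1 (BCL-XL) by 0.92.

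The members were also compared in how they vary. Over the 12 group means Tnfrsf4 and Tnfrsf9 correlated at Pearson r = 0.99 and Tnfrsf4 and Tnfrsf18 at 0.97, values that the split into labels sets. Cd27 correlated with Tnfrsf4, Tnfrsf9 and Tnfrsf18 between -0.12 and -0.01. Within labels, over 36 arrays less the mean of their label, Tnfrsf4 and Tnfrsf9 correlated at only 0.14 and the neighbours Tnfrsf4 and Tnfrsf18 at 0.04. Icos and Tnfrsf1b correlated at 0.73, and Cd27 and Tnfrsf18 at 0.61. Arrays share hybridisation quality and scaling, and these coefficients are descriptions.

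The genes most like each member over the 12 group means were Gins2 (r = 0.998) for Tnfrsf4, Dut (0.998) for Tnfrsf9, Cd2bp2 (0.990) for Tnfrsf18, Mxi1 (0.984) for Tnfrsf1b, Tor1aip2 (0.955) for Icos and Zfp846 (0.930) for Cd27. Gins2 is a subunit of the replication helicase and Dut an enzyme that keeps uracil out of DNA. Over the 36 arrays within labels they were Nbas (0.75), Dlst (0.82), Rnf138 (0.83), Mnt (0.87), Gbp6 (0.85) and Sh2d1a (0.90) in the same order of members. None of the 6 genes had the same closest gene in both measures.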

How the data were processed

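RNA of 36 samples was read on single-channel Affymetrix arrays, from Trizol extracts labelled with biotin in 1 amplification cycle, per the labels' protocols. By their range the authors' deposited values are log2, made with RMA per the submitters' processing notes. No source here gives its version or settings, and the centring is unknown: array medians lay between -0.48 and -0.23. Array number limits the precision.

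Groups came from the labels. Of 45101 probe sets 34958 carried 1 gene symbol, 932 several, 9211 were not listed with a gene and 64 were controls; 18146 of 18194 genes were named in the reference (GRCm38.p6). The model was fitted by limma 3.58.1 under R 4.3.3 (tables read with version 1.17.8 of data.table), with lmFit fitting 1 coefficient per group over all 36 arrays (24 residual and 6.75 prior degrees of freedom) and eBayes. Tests are two-sided, with Benjamini-Hochberg adjustment over all 18194 genes in each of 39 comparisons and a threshold of 0.05. Probe sets other than the one used were adjusted over all probe sets. The named genes are the 6 members, the pathway and marker lists and, per member, the most correlated genes. Members and lists were chosen with earlier results of these data known. Alternatives were the mean of all probe sets, other probe sets, a low-value filter (40th percentile, 3 or more arrays), quantile normalization, cyclic loess, array weights, replicate blocks, fewer arrays and leaving arrays out. The procedure was tested on simulated data.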

Additional observations from a re-analysis of the deposited data

Results flagged for a closer look

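The label difference of Tnfrsf4 depended on the hairpin when Ppp2r2d was set against the other 4 hairpins. It was smaller in size with Ppp2r2d by 1.23 on the log2 scale (limma, adjusted p = 0.0141, n = 3 arrays a group), in a test of the difference itself that was added after the values were seen. It was also called with quantile normalization (0.88), cyclic loess (0.92) and both array weightings (1.34 and 1.32), but not without Ppp2r2d array 1 labelled spleen or Ppp2r2d array 2 labelled tumor. Against LacZ the same difference was 0.89 and did not pass (limma, adjusted p = 0.417).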

How the results depend on the processing

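Of 1455 alternative values of single members 1308 kept direction and side of the threshold, as did 422 of 468 counts within 1.5 times. The falls of Tnfrsf4, Tnfrsf18, Tnfrsf1b and Icos over the mean of transductions held in all alternatives run, and that of Tnfrsf9 in all but 1 probe set. The cause of the changes below was not tested. The dim Tnfrsf9 set 1421481_at reversed the label difference over the mean (0.28) and with Egr2 (0.38), Ptpn2 (0.87), Arhgap5 (0.31) and Alk (1.27), the tumor-label differences from LacZ with Ptpn2 (0.84) and Arhgap5 (0.22), Ppp2r2d against other hairpins labelled tumor (-0.86), LacZ against 5 hairpins labelled tumor (-0.52) and the Ppp2r2d label difference against other hairpins (-0.90). Set 1428034_a_at reversed Tnfrsf9 for Ppp2r2d against LacZ (0.053) and LacZ against 5 hairpins (-0.062), both labelled spleen. Cd27 turned with array weights over the mean (-0.028), with Egr2 (-0.13) and with Alk (-0.13), with gene-by-gene array weights (-0.014, -0.087 and -0.057), without the 3 arrays of raised minimum over the mean (-0.0076) and with Egr2 (-0.040), with cyclic loess for Ptpn2 (0.018) and Arhgap5 (0.12), and with quantile normalization for Arhgap5 (0.10). Leaving out 1 array, Cd27 ranged from -0.016 to 0.065 over the mean, -0.0037 to 0.026 with Ppp2r2d, -0.040 to 0.38 with Egr2 and -0.081 to 0.23 with Alk.

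Members called higher were 1 over the mean with quantile normalization and 1 with cyclic loess, 1 with LacZ under quantile normalization, cyclic loess and array weights, and 1 with Egr2 under quantile normalization. With fewer arrays in the fit 3 members were lower with LacZ. Calls against LacZ labelled spleen numbered 5 with quantile normalization, 5 with cyclic loess, 6 with array weights, 1 with gene-by-gene weights, 1 without raised-minimum arrays and 0 to 1 leaving out 1 array (1 without LacZ array 3). Labelled tumor these were 1, 1, 10, 7 and 2, and 0 to 2 leaving out 1 array (Ptpn2 array 2 gave 2, array 3 gave 1). Against other hairpins labelled spleen they were 4, 3, 7, 6 and 1, and 3 with fewer arrays. Labelled tumor they were 3, 3, 6, 5 and 5, 0 with fewer arrays, and 0 to 3 leaving out 1 array (3 without Egr2 array 2 or Ptpn2 array 3). Label differences against LacZ gave 4, 4, 5 and 2 (both weightings last) and 0 to 1 leaving out 1 array (LacZ spleen array 3), and against other hairpins 5 and 2 with the 2 weightings and 0 to 1 leaving out 1 array.

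Array weights came from limma's default estimator, which stopped before its tolerance and gave weights from 0.064 to 57.9. The gene-by-gene estimator was chosen after that result was seen, and the counts of both are given above. Residual correlations of 18 same-numbered pairs of spleen and tumor arrays lay between -0.24 and 0.24, 4 over 0.1. For 15 pairs of LacZ and hairpin arrays they were -0.27 to 0.17 labelled spleen (3 over 0.1) and -0.59 to 0.52 labelled tumor (6 over 0.1). With 3 arrays a group, such correlations cannot show whether same-numbered arrays stem from the same mouse. A replicate block changed no count of members by over 1.5 times. A block by transduction ended the Icos calls with Egr2 (-0.84, limma adjusted p = 0.0654) and Ptpn2 (-0.71, adjusted p = 0.0729). With 3 arrays a group, low signal limits the dim probe sets.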
